A study of Mus musculus with 8 samples.

Results

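The interferon-induced proteins with tetratricopeptide repeats (IFIT) and the interferon-induced transmembrane proteins (IFITM) were described in mouse bone marrow-derived macrophages (BMDMs). The cells had received an antisense oligonucleotide (gapmeR) against the lncRNA MAARS or a control gapmeR. The 8 genes Ifit1, Ifit2, Ifit3, Ifit3b, Ifitm1, Ifitm2, Ifitm3 and Ifitm6 were taken by symbol from the 49315 genes counted, and all 8 were among the 13051 that passed a filter on low counts. BMDMs are non-transformed cells. Here marrow of C57BL/6 mice was cultured with macrophage colony-stimulating factor at 10 ng/ml. All cells were transfected by lipofection at a labelled gapmeR concentration of 25 nM, so the controls carried an oligonucleotide and the transfection reagent as well. A gapmeR is an antisense oligonucleotide that has RNase H cut the RNA it pairs with. The control group (4 libraries, replicates 2, 5, 6 and 7) received a negative control gapmeR. The MAARS gapmeR group (4 libraries, replicates 9, 11, 13 and 15) received a gapmeR against MAARS. The series has no untransfected cells, so effects of MAARS loss and of either oligonucleotide itself cannot be told apart. The labels do not say whether the libraries came from separate cultures or animals, so errors and p-values measure the spread between these samples, which may be technical. No time after transfection and no interferon or virus treatment is given in the labels. In bulk RNA, fewer cells expressing a gene and less RNA per cell cannot be told apart. The 8 genes were chosen by what this comparison had already shown for them, so their differences between the groups are given as a description, without p-values.

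Type I interferons bind the receptor formed by IFNAR1 and IFNAR2, whose kinases JAK1 and TYK2 phosphorylate STAT proteins. The factor ISGF3, which contains STAT2 and IRF9, then binds the interferon-stimulated response element (ISRE) in the promoters of its target genes, the Ifit genes and Ifitm3 among them. IFIT proteins are cytoplasmic and made of repeated helical motifs. IFIT1 binds RNA whose 5′ cap lacks the methyl groups of host mRNA and keeps it from being translated, and IFIT proteins also bind one another. IFITM proteins are small membrane proteins that hinder the fusion of viral with cellular membranes, IFITM3 mostly in endosomes. In macrophages both families are standard readouts of interferon signalling.

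The promoter sequences were searched for the ISRE, the element through which the Ifit genes and Ifitm3 are known to respond. Windows of 300 bases around RefSeq transcription starts (250 before, 50 after; build GRCm38.p6) were searched on both strands for the ISRE core, a GAAA followed after any 2 bases by another GAAA, which on the other strand is a pair of TTTC. The core was present in 3.44% of the 32851 windows of all genes, and 3.99% of the 27025 genes had it in a window. Ifit1, Ifit3, Ifit3b and Ifitm3 each held 2 copies and Ifitm2 held 1, so 5 of the 8 genes had a match. No match was found in the windows of Ifit2, Ifitm1 or Ifitm6, which says only that these letters are not there. The 250 bases before the start, with the core in capitals, ran as follows for the Ifit genes, all on the plus strand (Ifit1 at chr19:34640639-34640888, Ifit3 at chr19:34583279-34583528, Ifit3b at chr19:34607707-34607956 and the first of 2 Ifit2 starts at chr19:34550444-34550693).
Ifit1: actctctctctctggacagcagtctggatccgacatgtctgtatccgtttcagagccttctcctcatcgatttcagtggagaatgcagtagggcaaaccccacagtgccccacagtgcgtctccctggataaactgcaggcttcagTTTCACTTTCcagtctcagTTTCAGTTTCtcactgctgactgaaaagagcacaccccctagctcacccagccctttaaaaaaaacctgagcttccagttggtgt
Ifit3: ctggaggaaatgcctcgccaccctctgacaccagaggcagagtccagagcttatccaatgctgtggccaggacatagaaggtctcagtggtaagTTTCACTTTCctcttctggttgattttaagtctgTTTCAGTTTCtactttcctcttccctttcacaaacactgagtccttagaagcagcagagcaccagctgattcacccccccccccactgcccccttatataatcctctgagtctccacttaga
Ifit3b: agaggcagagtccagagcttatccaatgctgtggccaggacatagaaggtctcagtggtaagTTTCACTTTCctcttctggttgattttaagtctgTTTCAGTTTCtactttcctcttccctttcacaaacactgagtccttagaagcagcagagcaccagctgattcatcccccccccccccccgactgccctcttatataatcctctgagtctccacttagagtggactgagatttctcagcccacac
Ifit2: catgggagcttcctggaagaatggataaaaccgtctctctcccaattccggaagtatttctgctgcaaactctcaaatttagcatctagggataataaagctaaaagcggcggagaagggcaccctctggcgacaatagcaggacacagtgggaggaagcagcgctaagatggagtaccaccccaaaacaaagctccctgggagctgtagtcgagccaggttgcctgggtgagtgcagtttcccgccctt
The Ifit3 and Ifit3b windows shared an unbroken run of 169 bases that holds both cores. In Ifit1 the cores began 104 and 85 bases before the start, and the windows of Ifit1 and of the divergent gene Ifit1bl2 overlap, so both genes carry the same pair. For the Ifitm genes the 30 bases around the matches are given, on the minus strand, at chr7:140955988-140956017 for Ifitm2 and chr7:141010715-141010744 for Ifitm3. The core began 46 bases before the start in Ifitm2 and at bases 3 and 20 of the transcript in Ifitm3.
Ifitm2: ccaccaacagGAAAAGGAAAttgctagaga
Ifitm3: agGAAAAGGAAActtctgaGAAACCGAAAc
The GAS core TTCNNNGAA, the gamma-activated sequence, was in 8.30% of all windows and at 9.55% of genes. It was found at Ifitm3, where it lies between the ISRE cores and overlaps the second, at Ifitm6 and at the Ifit2 start shown above.

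MAARS itself, listed as Gm14461 (chr2:78237547-78302230, plus strand), checked the labels. It had 238, 296, 240 and 249 counts in the control libraries and 163, 161, 159 and 135 in the MAARS gapmeR libraries. Its log2 fold change was -0.95 (SE 0.112, edgeR's quasi-likelihood test, Benjamini-Hochberg adjusted p = 5.8e-05), with no overlap between the groups. The libraries held 19287279 to 20567123 counts in the control group and 20839671 to 24541205 in the MAARS gapmeR group, so every MAARS gapmeR library was deeper. Of 10 macrophage markers 10 were tested, and their summed level was 18175 to 21939 TMM-normalized CPM (counts divided by library size) in control and 21512 to 24691 in MAARS gapmeR libraries. Lyz2 made up much of the sum (9402 and 13170 CPM on average), and 6 markers rose and 3, Fcgr1, Cd68 and Lgals3, fell. Across all genes 45.4% were called at an adjusted p under 0.05, 24% lower and 21.3% higher with the MAARS gapmeR. With upper-quartile scaling the share of called genes that were higher moved from 47.0% to 60.4% and the median of all genes shifted by 0.06 on the log2 scale.

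The Ifit genes had the largest differences among the 8. Ifit2, an RNA-binding member that also pairs with other IFIT proteins, was the most abundant by CPM, at 1231, 1709, 2133 and 1816 CPM in control replicates 2, 5, 6 and 7. In MAARS gapmeR replicates 9, 11, 13 and 15 it stood at 57.3, 135.1, 207.9 and 75.4 CPM. The groups were far apart, with the lowest control library 5.92 times the highest MAARS gapmeR library. The means were 1722 ± 373.7 and 118.9 ± 68.0 CPM (SD, n = 4 each). This was 14.5-fold lower, at a log2 fold change of -3.86 (SE 0.3597).

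Ifit3, which in other systems stabilizes IFIT1 on its RNA targets, measured 668.1, 817.5, 1029 and 984.3 CPM in control libraries. With the MAARS gapmeR it measured 36.2, 88.3, 138.5 and 59.6 CPM, a log2 fold change of -3.44 (SE 0.334) or 10.8-fold lower. Ifit3b, its close paralog in the mouse, stood at 126.9, 142.7, 189.5 and 197.5 CPM in control and at 7.43, 18.3, 23.3 and 12.5 CPM in MAARS gapmeR libraries, 10.6-fold lower (log2 fold change -3.41, SE 0.270). Neither gene had overlapping groups. The pair share sequence. Of the 100-base windows of their transcripts, 31.7% of those of Ifit3 and 27.4% of those of Ifit3b occur in the other gene, so part of the reads could be assigned to either and the separate values are uncertain to that extent.

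Ifit1, the cap-sensing member, was the least changed of the 4. Its control levels were 200.8, 255.5, 294.6 and 257.7 CPM and its MAARS gapmeR levels 14.9, 34.7, 49.7 and 20.6 CPM. The means of 252 ± 38.7 and 30.0 ± 15.6 CPM (SD, n = 4 each) gave a log2 fold change of -3.07 (SE 0.292), 8.40-fold lower. Only 3.29% of its 100-base windows occurred in another transcript, that of Ifit1bl2.

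**Figure D1:**
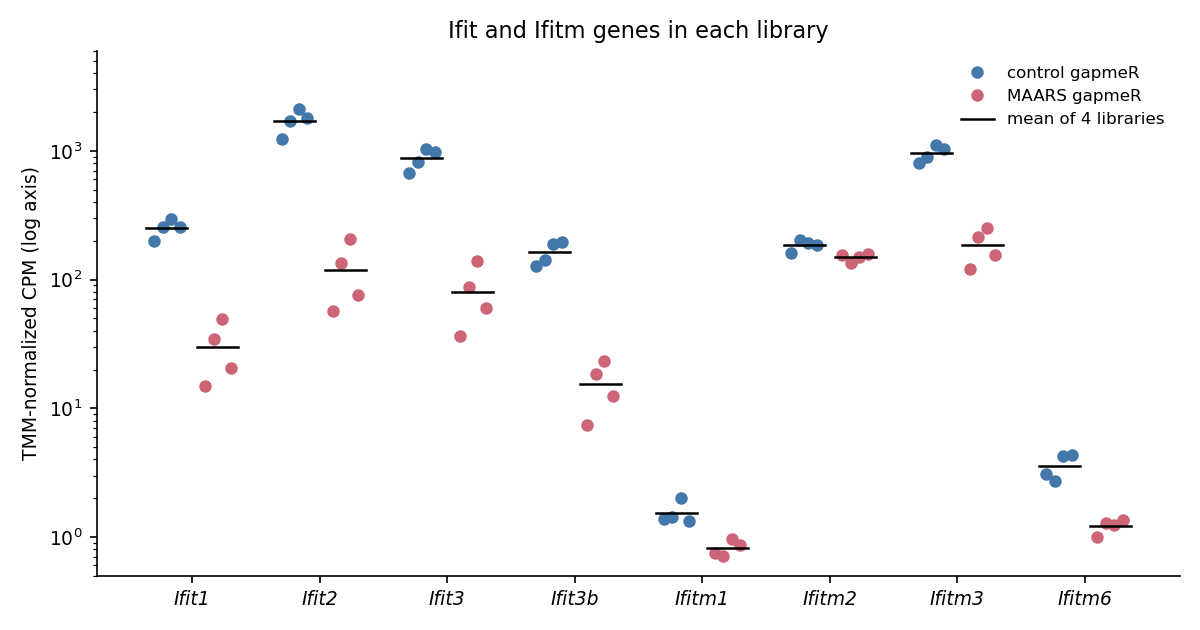
Level of each of the 8 genes in each library, in TMM-normalized CPM on a log axis, with blue points for the 4 control gapmeR libraries, red points for the 4 MAARS gapmeR libraries and a bar at each group's mean. In every gene the red points are under the blue ones, by the widest margin for Ifit2 (lowest control 1231 CPM, highest MAARS gapmeR 207.9 CPM) and the narrowest for Ifitm2 (160.2 and 156.8 CPM).

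The 4 Ifitm genes differed among themselves far more than the Ifit genes did. Ifitm3, the endosomal antiviral member, was at 799.6, 903.9, 1115 and 1033 CPM in control libraries and at 120.6, 212.8, 251.8 and 155.0 CPM in MAARS gapmeR libraries. The log2 fold change was -2.38 (SE 0.199), 5.20-fold lower. Every MAARS gapmeR library was below every control library by a wide margin.

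Ifitm2, which resembles Ifitm3 in sequence and also acts in endosomal membranes, was at 160.2, 203.8, 193.3 and 184.9 CPM in control libraries. In MAARS gapmeR libraries it was at 155.6, 134.2, 150.9 and 156.8 CPM. The groups just failed to touch, with the lowest control library 1.02 times the highest MAARS gapmeR library. The mean fell from 186 ± 18.6 to 149.4 ± 10.4 CPM (SD, n = 4 each), 19.5% lower on the fitted scale (log2 fold change -0.31, SE 0.0746). In the annotation 40.9% of its exonic sequence is shared on the same strand with the read-through transcript Gm45717, so part of its count depends on how such reads were assigned.

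Ifitm6 and Ifitm1 were expressed at a few CPM or less. Ifitm6, a member found mainly in leukocytes, had 60, 53, 78 and 88 counts in control libraries against 21, 32, 27 and 31 in MAARS gapmeR libraries (2.93-fold lower, log2 fold change -1.55, SE 0.207). Ifitm1, a member located mostly at the cell surface, had 27, 28, 37 and 27 counts against 16, 18, 21 and 20 (log2 fold change -0.89, SE 0.227). For both genes the groups did not overlap, but counts of this size limit the precision of both values.

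Over the list, 8 of the 8 genes were called lower, beside 24% of all genes, and for 8 of 8 the highest MAARS gapmeR library was under the lowest control library, beside 22.8% of all genes. Because the genes were chosen with this comparison known, nothing is read from these counts. The median log2 fold change was -3.42 over the Ifit genes and -1.22 over the Ifitm genes, against 0.01 over all genes tested. Together the 8 genes took 0.319% to 0.476% of all counts in control libraries and 0.0399% to 0.0840% in MAARS gapmeR libraries. When all 13051 genes were ordered from the lowest log2 fold change, Ifit2 stood at place 23, Ifit3 at 39, Ifit3b at 42, Ifit1 at 51 and Ifitm3 at 85. Ifitm6 stood at 205, Ifitm1 at 489 and Ifitm2 at 2192.

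Levels were compared between genes as CPM per kb of exonic sequence. In control libraries Ifitm3 led at 1420 ± 205.5 CPM per kb (SD, n = 4), above 99.8% of the genes tested. It was followed by Ifit3 (501 ± 94.6) and Ifit2 (438.5 ± 95.2), whose ranges overlapped, then by Ifitm2 at 283 ± 28.4. Ifit1 (94.9 ± 14.6) and Ifit3b (82.1 ± 17.3) overlapped next, and Ifitm6 (3.95) and Ifitm1 (1.40) came last. With the MAARS gapmeR the order changed at the top. Ifitm3 at 273 ± 86.4 CPM per kb and Ifitm2 at 228 ± 15.9 overlapped there, and both stood above Ifit3 (46.2), Ifit2 (30.3), Ifit1 (11.3) and Ifit3b (7.70), each of which overlapped the next. Ifitm6 and Ifitm1 again came last, at 1.34 and 0.755 CPM per kb.

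Ratios within a library do not depend on its scaling. The counts of Ifitm3 were 4.44 to 5.77 times those of its neighbour Ifitm2 in control libraries and 0.775 to 1.67 times in MAARS gapmeR libraries, so the ratios did not overlap. Ifit2 had 6.13 to 7.24 times the counts of Ifit1 in control and 3.66 to 4.18 times in MAARS gapmeR libraries, also without overlap. The ratio of Ifit3 to Ifit3b was 5.35 ± 0.312 in control and 5.10 ± 0.559 in MAARS gapmeR libraries (SD, n = 4 each), a difference smaller than the spread between libraries.

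Within each group the 4 Ifit genes and Ifitm3 shared much of their order across libraries, and Ifitm1, Ifitm2 and Ifitm6 followed it less. Control replicate 2 was lowest for 6 of the 8 genes and replicate 6 highest for 5. Among MAARS gapmeR libraries replicate 9 was lowest for 6 and replicate 13 highest for 6. The spread was wide for the Ifit genes with the MAARS gapmeR. There the SD of log2 CPM was 0.77 for Ifit1, 0.83 for Ifit2, 0.82 for Ifit3 and 0.72 for Ifit3b. In control libraries it was 0.23, 0.33, 0.28 and 0.31 for the same genes. The median gene had an SD of 0.12 in control and 0.11 in MAARS gapmeR libraries. Ifitm3 went from 0.21 to 0.47, whereas Ifitm2 (0.15 and 0.10), Ifitm1 (0.26 and 0.17) and Ifitm6 (0.33 and 0.18) did not spread more with the MAARS gapmeR. Replicate 9, lowest of the MAARS gapmeR libraries for the Ifit genes, had the highest MAARS level of that group (7.71 CPM, against 5.85 to 7.31). That gap was small, at 163 counts against 159 in replicate 13. Among control libraries replicate 2, lowest for 6 of the 8 genes, was also lowest for MAARS (12.19 CPM, against 12.23 to 15.1). Whether MAARS and Ifit levels go together within a group was not tested.

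**Figure D2:**
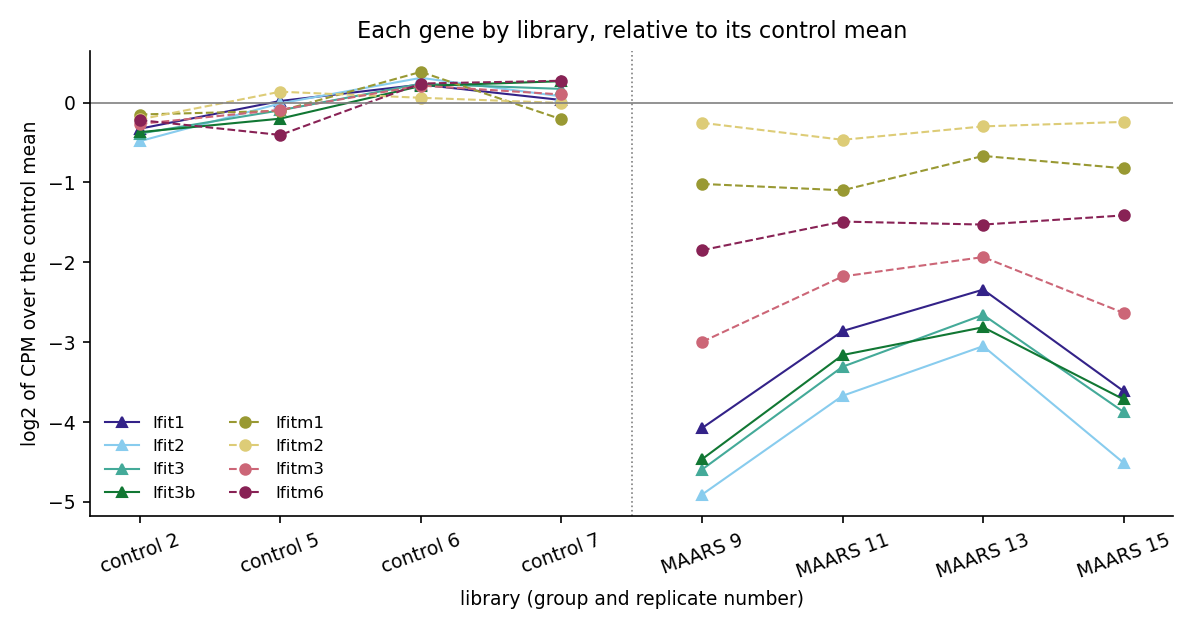
Log2 of each gene's CPM over its mean in the 4 control libraries, by library, with triangles and solid lines for Ifit genes and circles and dashed lines for Ifitm genes; lines only join the points of 1 gene, and replicates have no order. The 4 Ifit genes and Ifitm3 rise and fall together among the MAARS gapmeR libraries, lowest in replicate 9 and highest in replicate 13, while Ifitm2, Ifitm1 and Ifitm6 stay within a narrower band.

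Of the other 5 genes with Ifit or Ifitm symbols, 3 passed the filter and all 3 fell, beside 24% of all genes. Ifit1bl1, an Ifit1-like gene inside the cluster, had 1837, 2409, 4967 and 4999 counts in control libraries and 41, 46, 51 and 14 in MAARS gapmeR libraries. Its log2 fold change of -6.77 (SE 0.440, edgeR adjusted p = 4.67e-06), 109-fold lower, was the lowest of all 13051 genes tested. Only 0.51% of its 100-base windows are shared with another transcript. Ifit1bl2 had 85, 82, 126 and 123 counts against 11, 12, 10 and 9 (log2 fold change -3.52, SE 0.236, edgeR adjusted p = 4.79e-06). Ifitm10, which lies apart from the Ifitm cluster, had 16, 15, 20 and 41 against 5, 8, 3 and 5 (log2 fold change -2.32, SE 0.418, edgeR adjusted p = 0.000966). Ifitm5, a bone-restricted member, stayed at 9 counts or fewer in every library, and Ifitm7 at 1 or 0, so neither could be tested.

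**Figure D3:**
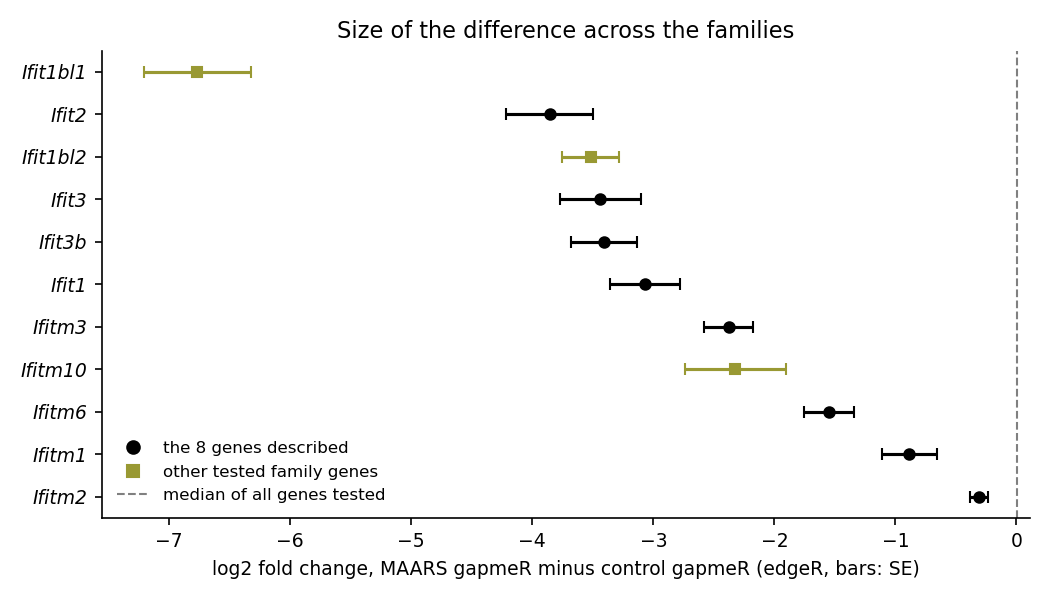
Log2 fold change (MAARS gapmeR minus control gapmeR, edgeR) of the 11 Ifit and Ifitm genes tested, with bars of 1 SE, circles for the 8 genes described and squares for the others, and a dashed line at the median of all genes (0.01). All 11 lie below the line, from -6.77 for Ifit1bl1 to -0.31 for Ifitm2.

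The genes sit in 2 clusters. On chromosome 19 the Ifit genes span 99.3 kb (chr19:34550694-34650009, GRCm38), in the order Ifit2, Ifit3, Ifit1bl1, Ifit3b, Ifit1bl2 and Ifit1, with the 4 members on the plus strand. Their gene spans are chr19:34550694-34576419 for Ifit2, chr19:34583531-34588731 for Ifit3, chr19:34607970-34613401 for Ifit3b and chr19:34640871-34650009 for Ifit1. Of 5 other protein-coding genes within 250 kb, 3 were tested and 2 rose, beside 21.3% of all genes. Lipa, lysosomal acid lipase, lies 23.2 kb from Ifit2 and had a log2 fold change of -0.09 (SE 0.0601, edgeR adjusted p = 0.228). Pank1, a coenzyme A synthesis kinase on the other side, rose (0.73, SE 0.0976, edgeR adjusted p = 0.000129), and so did the death receptor Fas (0.36, SE 0.131, edgeR adjusted p = 0.0419). The call on Fas was lost without control replicate 2, 6 or 7 or MAARS gapmeR replicate 9, 13 or 15, where its log2 fold change was 0.29 to 0.40.

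On chromosome 7 the Ifitm genes span 63.1 kb (chr7:140954837-141017924): Ifitm2 at chr7:140954837-140955987 and Ifitm3 at chr7:141009586-141010770 on the minus strand, Ifitm1 at chr7:140967221-140969825 on the plus strand and Ifitm6 at chr7:141015699-141017924 on the minus strand. Of 29 other protein-coding genes within 250 kb, 14 were tested and 3 fell, a share near the 24% of all genes. These were the interferon regulatory factor Irf7 (log2 fold change -3.20, SE 0.346), 244.8 kb away, the ribonuclease inhibitor Rnh1 (-0.71, SE 0.0604) and Hras (-0.16, SE 0.0490, edgeR adjusted p = 0.0183), whose call was lost without control replicate 2 (-0.15), with upper-quartile factors (-0.10) and without the filter on low counts (-0.17). The nearest tested neighbour, Pgghg, a glucosidase gene 7.17 kb from Ifitm2, had 10.5 CPM in both groups (edgeR adjusted p = 0.994). The other 10 did not pass the test, with Rassf7 at -0.71 (SE 0.271, edgeR adjusted p = 0.0510), Sigirr at -0.25, Psmd13 at -0.04, Phrf1 at -0.01, Bet1l at 0.03, Ptdss2 at 0.07, Ric8a at 0.16, Lrrc56 at 0.18, Sirt3 at 0.28 and Zfp941 at 0.36. Of these, Rassf7 was called without control replicate 7 (-0.81) or MAARS gapmeR replicate 9 (-0.85) or 11 (-0.88), and with DESeq2 (-0.71), limma-voom (-0.75) and no filter (-0.71). Ric8a was called without control replicate 5 or MAARS gapmeR replicate 11 (both 0.20), and with RLE factors, DESeq2 (both 0.17) and upper-quartile factors (0.22). Sirt3 was called without control replicate 5 and with upper-quartile factors (both 0.34). Without MAARS gapmeR replicate 13 Sigirr was at -0.05. The signs of Psmd13, Phrf1 and Pgghg, all near 0, flipped under upper-quartile scaling.

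**Figure D4:**
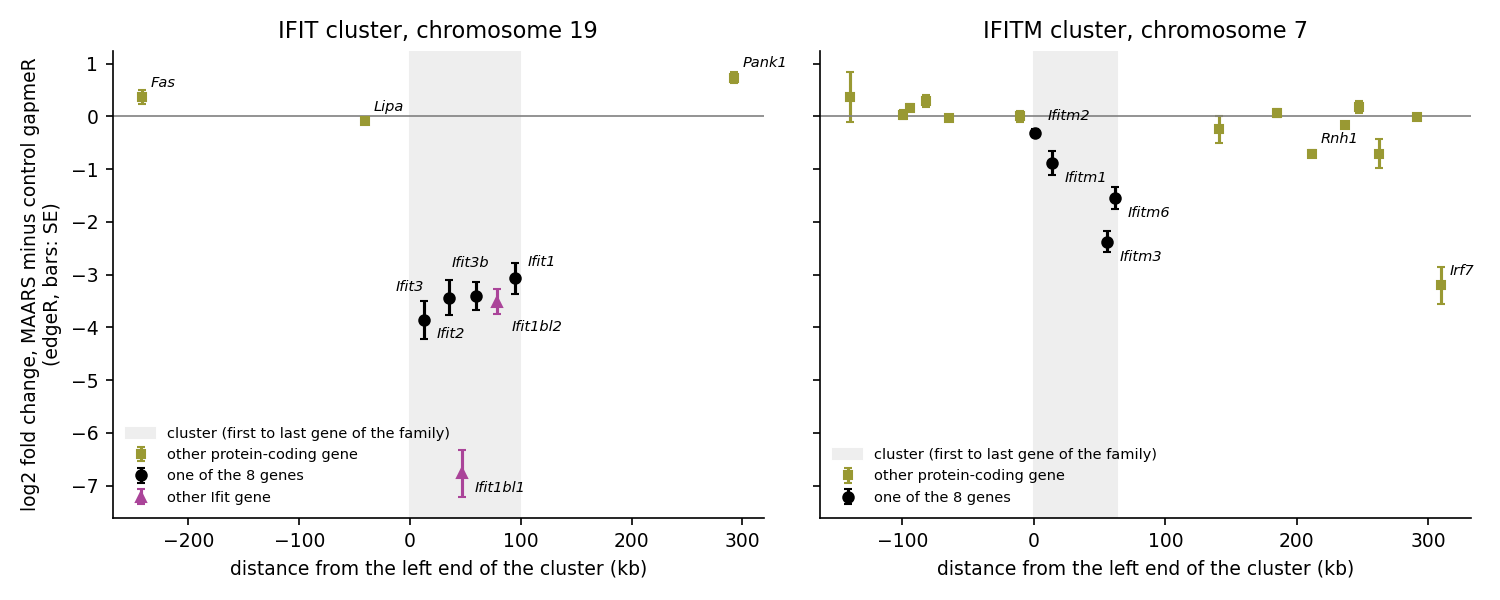
Log2 fold change (bars of 1 SE) against distance in kb from the left end of each cluster, for the 8 genes (black circles), other Ifit genes (purple triangles) and other tested protein-coding genes within 250 kb (squares); the cluster is shaded. On chromosome 19 the neighbours lie between -0.09 and 0.73 while every Ifit gene is at -3.07 or lower. On chromosome 7 Irf7, at -3.20, lies far below the other neighbours.

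The pathway upstream was described with lists of genes grouped by role. The lists were chosen with earlier results of these data known. Their counts of genes that fell or rose, set beside the shares of all genes, are therefore a description and not a test of the pathway. List names give the role of a gene's product. Some listed genes, such as Irf7 and Isg15, are themselves interferon-induced, so a fall does not place a change upstream of the Ifit genes. Of 21 interferon genes, 16 had no count in any library and the others too few to test. Ifnb1, the interferon beta made by macrophages, had 2, 0, 0 and 1 counts in control libraries and 2, 0, 0 and 0 in MAARS gapmeR libraries. Ifnk and Ifnz reached 2 counts at most in any library, and Ifnab and Ifng reached 1. A difference in interferon RNA was not detectable at this depth.

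Of 8 tested receptor chains and kinases, 1 rose and 3 fell, all by small amounts and not far from the shares over all genes (21.3% and 24%). Ifnar1 rose (log2 fold change 0.29, SE 0.0496, edgeR adjusted p = 0.000649), and Ifnar2 had -0.12 (SE 0.0503, edgeR adjusted p = 0.0752). Jak2, the kinase of the interferon gamma receptor, fell by 0.42 (SE 0.0830) and Ifngr2, a chain of that receptor, by 0.22 (SE 0.0469). Jak1 fell by 0.12, at the threshold (edgeR adjusted p = 0.05), and lost its call without control replicate 5, 6 or 7 or MAARS gapmeR replicate 11, 13 or 15, at log2 fold changes of -0.13 to -0.11, and also with RLE factors (-0.12), upper-quartile factors (-0.06) and no filter (-0.13). Without control replicate 2 Ifnar2 was called as well (-0.15), and 5 genes of the list fell, and without MAARS gapmeR replicate 11 the list had 2 genes that rose.

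Among the 9 factors of ISGF3 and the IRF family, 7 fell and 1 rose, beside 24% and 21.3% of all genes. Because the lists were chosen with earlier results known, no pathway-wide fall is inferred from such counts. The ISGF3 subunits Stat2 (405 to 141.5 CPM, log2 fold change -1.52, SE 0.139) and Irf9 (122 to 74.7 CPM, -0.71, SE 0.103) both fell. Irf7, which drives interferon genes and is itself interferon-induced, fell from 1344 to 146 CPM, and Irf5 fell by 0.70 on the log2 scale. Irf3 rose by 0.16 (SE 0.0551, edgeR adjusted p = 0.0334), a call that held without MAARS gapmeR replicate 13 (0.19) and was lost when any of the other 7 libraries was left out, with log2 fold changes of 0.12 to 0.17, or when no filter was applied (0.16). The edgeR adjusted p was 0.00024 for Irf9.

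Of 7 genes on the list of feedback inhibitors of the pathway 5 fell, beside 24% of all genes. Isg15, an interferon-induced ubiquitin-like modifier placed on this list, fell by 3.44 on the log2 scale (SE 0.293, 256 to 23.5 CPM). Whether it acts as an inhibitor in these mouse cells was not examined. Usp18, which blocks IFNAR2 signalling, fell by 2.32 (SE 0.243). The phosphatase gene Ptpn6 fell by 0.55 (SE 0.0541). Socs3 did not pass the test (0.20, SE 0.242, edgeR adjusted p = 0.536). Of 15 sensors and adaptors whose products act upstream of interferon, 13 fell, beside the same 24%. Those with the smallest p were the Z-nucleic acid sensor Zbp1 (-3.20, SE 0.244), the double-stranded RNA receptor Tlr3 (-1.51, SE 0.119) and the adaptor Myd88 (-0.87, SE 0.0715). The kinase Tbk1 had -0.02 and Tmem173, which encodes STING, -0.14, neither past the test.

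The partners of the proteins in their action moved less. IFIT1 competes with the cap-binding factor eIF4E, and IFIT proteins bind eIF3. Of 20 genes of cap methylation, cap binding and eIF3, 5 fell and 2 rose, where 24% of all genes fell and 21.3% rose, so the share that fell was near that of all genes. Eif3d fell by 0.38 (SE 0.0414), Eif3g by 0.50 (SE 0.0597) and Eif4e by 0.50 (SE 0.0797), and Eif3h rose by 0.36 (SE 0.0602) and Eif3f by 0.17 (SE 0.0492), a call lost without control replicate 7 (0.14). Of 14 genes that modify or accompany IFITM proteins, 7 rose and 1 fell, beside 21.3% and 24% of all genes, and with upper-quartile factors 9 rose. Setd7, which methylates IFITM3, rose by 0.67 (SE 0.0766), Zdhhc20, which palmitoylates it, by 0.39 (SE 0.0537) and Vcp, which extracts ubiquitinated membrane proteins, by 0.28 (SE 0.0423). Vapb, a membrane contact protein, fell by 0.30 (SE 0.0381). The median log2 fold change was -0.70 over the factors, -0.55 over the inhibitors, -0.87 over the sensors, -0.05 over the cap list and 0.17 over the IFITM partners.

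**Figure D5:**
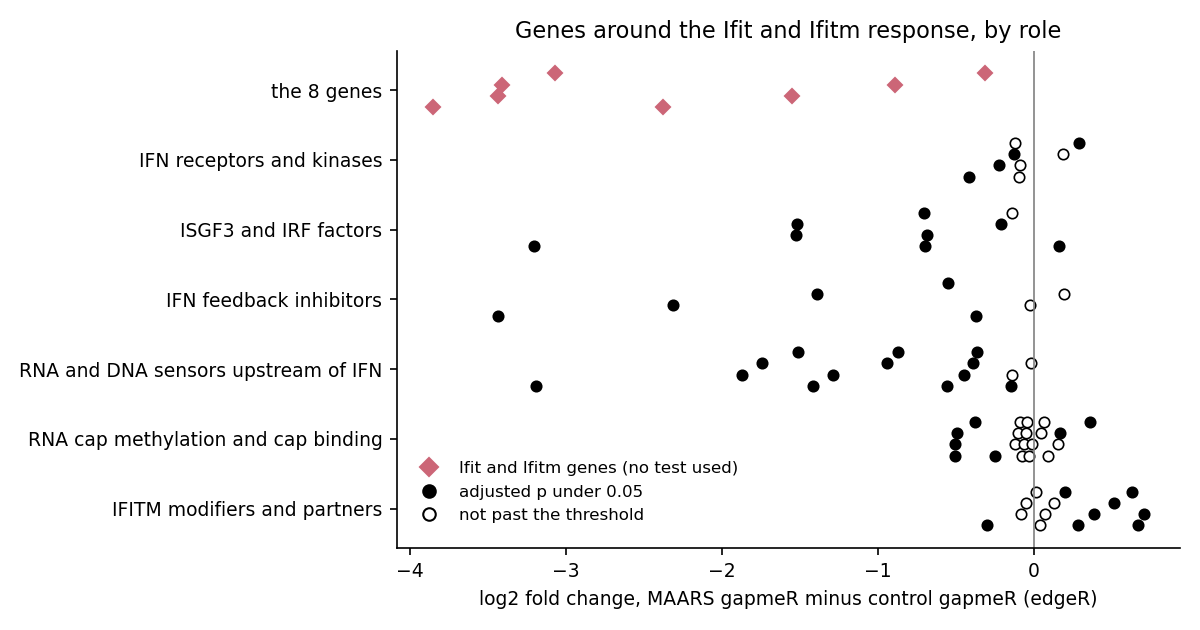
Log2 fold change (MAARS gapmeR minus control gapmeR, edgeR) of the 8 genes (diamonds) and of every tested gene of 6 lists, filled where the adjusted p was under 0.05 and open where it was not. Most factors, inhibitors and sensors lie below 0, down to -3.44 for Isg15, while the receptor, cap and IFITM partner lists lie between -0.51 and 0.71.

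Markers of other cell types were examined because Ifitm6 and Ifitm1 are also expressed in other blood cells. For each marker list the background was 24% of all genes lower and 21.3% higher. The marker lists were also chosen with earlier results known, so their counts are a description. Of 8 inflammatory monocyte markers 8 were tested, 4 fell, Plac8, Ly6c2 and Ccr2 among them, and 1 rose (F13a1). Their summed level was 41.7 to 97.3 CPM in control and 48.7 to 55.6 CPM in MAARS gapmeR libraries, and control replicate 7, highest for Ifitm6 and Ifit3b, was the highest for this list. Their part in the Ifitm6 difference was not tested. Of 12 neutrophil and precursor markers 10 were tested and 1 rose, Mmp8, with sums of 169 to 357 CPM in control and 209 to 252 CPM in MAARS gapmeR libraries. None of 8 lymphocyte markers could be tested, and their summed level was at most 0.638 CPM in control and 0.438 CPM in MAARS gapmeR libraries. Of 8 dendritic cell markers 2 were tested and Bst2, itself interferon-induced, fell. The 6 others had at most 17 counts in a library, reached by Xcr1 (9, 12, 17 and 15 counts in control and 5, 4, 7 and 2 in MAARS gapmeR libraries). Of 8 stromal and endothelial markers 7 were tested and 1, Kdr, fell, with sums of 455 to 1024 CPM in control and 699 to 1201 CPM in MAARS gapmeR libraries. The only tested erythroid or mast cell marker of 8, Kit, did not pass.

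The genes most like each member were found as those with the highest Pearson r of log2 CPM over the 8 libraries, among 8560 protein-coding genes of at least 10 CPM on average. All points share library and depth and the group difference enters r, so these are descriptions. After each group's mean was subtracted, r was 0.892 to 0.997 over the pairs named. For Ifit1 they were Irgm1 (r = 0.999) and Isg15 (0.998), for Ifit2 Ifi203 and Ifi209 (both 0.999), for Ifit3 Ifi44 (0.9995) and Isg15 (0.999), for Ifit3b Xaf1 and Ifi211 (both 0.999), and for Ifitm3 Zbp1 and Ifi211 (both 1.00 when rounded). The differences of these genes were sizeable, with log2 fold changes from -4.08 for Ifi44 to -1.50 for Ifi203. The nearest genes to Ifitm2 were Dlgap4 (0.996) and Socs7 (0.991), with log2 fold changes of -0.13 and -0.22. The call on Dlgap4 was lost without control replicate 5, 6 or 7 or MAARS gapmeR replicate 11, 13 or 15 (-0.14 to -0.11), with upper-quartile factors (-0.07) and without the filter (-0.14), and that on Socs7 with upper-quartile factors (-0.15). Those nearest to Ifitm1 were Endod1 (0.982) and Coq10b (0.980), and to Ifitm6 Wdr43 (0.996) and Slfn4 (0.995). The number of genes with r above 0.95 was 621 to 741 for the Ifit genes, Ifitm3 and Ifitm6, 94 for Ifitm1 and 19 for Ifitm2.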

How the data were processed

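RNA-Seq of 8 BMDM libraries (4 control gapmeR, 4 MAARS gapmeR) was used. The deposited values are raw counts per gene, not normalized. According to the submitters' processing notes and the paper's methods, the authors trimmed reads of 100 nt in pairs with Trimmomatic 0.36, aligned them with STAR 2.5.2b to GRCm38 with Ensembl 79 transcripts and assigned them to genes with featureCounts (Subread 1.5.2). The strand setting and the treatment of reads with several matches are not given in the sources used here.

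From these counts, genes were filtered with filterByExpr (minimum count 10, total 15), scaled by TMM factors and compared with glmQLFit and glmQLFTest of edgeR 4.0.16 (R 4.3.3), with p-values adjusted by Benjamini-Hochberg over 13051 genes and a threshold of 0.05. The SE of a log2 fold change is its size divided by the square root of F. Depth was 19287279 to 24541205 counts per library. Counting precision therefore limits only genes of few counts, such as Ifitm1. The chi-square per gene between libraries of a group was 4.24 to 15.1, above sampling noise, so each counted as 1 sample. Positions, exonic lengths and shared 100-base windows came from GENCODE M21 on GRCm38, which held 99.5% of the genes, and promoters from RefSeq on GRCm38.p6. The procedure was also run on simulated counts in which few genes changed, equally up and down. That setting differs from these data, so nothing is read from it here.

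The 8 genes and the gene lists were chosen with earlier results of these data known. Besides these genes and MAARS, the genes named are all others with Ifit or Ifitm symbols, all tested protein-coding neighbours within 250000 bases, up to 3 genes of the smallest p per list and direction, fixed members of the pathway (ligands with a count, Stat2, Irf9, Ifnar1, Ifnar2, Usp18 and Isg15) and the 2 most similar genes of each member. Jak1, Irf3, Irf5 and Irf7 are among the genes named for their small p. Marker genes and Socs3, Tbk1 and Tmem173 were named after their values had been seen. Alternatives were RLE and upper-quartile factors, DESeq2 1.42.0, limma-voom (limma 3.58.1), no filter, and each library left out. Some genes of the lists are not reported here by name.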

Additional observations from a re-analysis of the deposited data

Results flagged for a closer look

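In 132 groups of 4 libraries, from 66 named genes in each condition, a library stood apart from the other 3 by Dixon's test in 5, where chance alone flags about 1 in 20 groups. Ifitm1 was flagged in control replicate 6 at 2.001 CPM, against 1.33 to 1.43 CPM in the other control libraries. Without that library the log2 fold change of Ifitm1 was -0.74, against -0.89 with it. The Ifitm neighbours Pgghg and Sigirr were flagged in MAARS gapmeR replicate 13, at 9.604 CPM against 10.7 to 10.8 CPM and at 0.8271 CPM against 1.65 to 1.80 CPM. Without that library the log2 fold change of Sigirr was -0.05, against -0.25 with it. Of the genes most like a member, Socs7 was flagged in MAARS gapmeR replicate 11 at 33.94 CPM, against 36.2 to 36.5 CPM, and Wdr43 in MAARS gapmeR replicate 9 at 39.92 CPM, against 44.2 to 44.8 CPM.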

How the results depend on the processing

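MAARS and all 8 genes kept their direction and their side of the threshold under all 5 other settings and with each of the 8 libraries left out in turn. No paired analysis was possible because the groups share no replicate numbers. Leaving out 1 library gave 1 to 2 called higher and 2 to 5 called lower among receptors and kinases, 0 to 1 called higher among ISGF3 and IRF factors and 1 to 3 called higher in the cap list. With upper-quartile factors 2 receptors and kinases and 4 cap genes were called higher, and without the filter 2 receptors and kinases and 0 factors were. Of 741 values of the 57 other named genes, 675 kept direction and side, 36 lost and 14 gained a call, and 16, of genes not called, changed sign. The sign changes were those of Pgghg (0.00569 with RLE factors, 0.062 with upper-quartile factors, 0.00573 with DESeq2, 0.0076 with limma-voom, -0.057 to 0.094 with a library left out), Phrf1 (3.6e-05 with RLE factors, 0.056 with upper-quartile factors, 1.4e-05 with DESeq2, -0.044 to 0.014 with a library left out), Psmd13 (0.023 with upper-quartile factors), Bet1l (-0.018 to 0.083 with a library left out) and Zfp941 (-0.0196 to 0.60). The cause was not tested. Depth limits Ifitm1, Ifitm6 and the interferon genes.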
